A study of Litchi chinensis with 30 samples.

Results

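The YABBY genes of litchi were taken as the rows of the expression table whose Swiss-Prot annotation names a YABBY, a CRABS CLAW or an INNER NO OUTER protein. The rule found 12 entries among 37234 rows, and the 12 belonged to 7 loci, since identifiers that are alike up to the suffix are read here as entries of the same locus. All 12 also carried a YABBY domain in their Pfam annotation, and no other row named the family in its Pfam or NR annotation. One locus, LITCHI005346, was annotated as CRABS CLAW. The loci LITCHI022829, LITCHI025506 and LITCHI025508, were annotated as YABBY 1. LITCHI023864 was annotated as YABBY 2 with 2 entries, LITCHI004920 as YABBY 4 with 2 entries and LITCHI016604 as YABBY 5 with 4 entries. No row had INNER NO OUTER in its name, but YABBY 4 is the Swiss-Prot name of the Arabidopsis INNER NO OUTER protein. These names are best matches to known proteins, and the loci were not placed on a tree here.

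RNA was sequenced from whole flowers of the litchi cultivar Feizixiao, in 30 libraries. Functionally female flowers (F1 to F5) and functionally male flowers (M1 to M5) were each taken at 5 stages with 3 replicates, stages 1 to 3 being buds of growing size and stages 4 and 5 opening and open flowers. Litchi bears both kinds on the same tree. The study describes 3 flower types, the female type generally opening between an earlier and a later male type. Which male type M1 to M5 were, and whether both sexes were collected at the same time, is not stated. The part of flowering order in differences between the sexes was not tested. According to the study, the female flower keeps stamens whose anthers do not open, the male flower keeps a rudimentary pistil, and both lack petals. No treatment or mutant was involved. Each library is a mixture of all organs of the flower, so fewer cells of a type and less RNA per cell cannot be told apart in any value below. The study describes sampling in triplicate from sides of the tree that faced north, south, east and west. Neither it nor the labels say whether replicates came from separate trees, and p-values therefore measure only the spread between these samples.

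YABBY proteins are seed plant transcription factors with a zinc finger and an HMG-like YABBY domain, best known for marking the abaxial (outer or lower) side of leaves and floral organs. In Arabidopsis, FILAMENTOUS FLOWER, the protein that Swiss-Prot calls YABBY 1, acts in the abaxial side of all lateral organs of the shoot, and YABBY 2 and YABBY 5 overlap with it in leaves and flowers. CRABS CLAW is needed there for carpel shape, carpel fusion and nectary formation. INNER NO OUTER is needed for the outer integument of the ovule.

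Total counts lay between 27433038 and 43760285 per library, with a median of 34876110. Replicate 3 of F2 stood apart in markers of green tissue (chlorophyll a-b binding proteins, 17 rows), whose summed FPKM was 279 there and at least 872 in the other F2 libraries. Replicate 1 of F5 stood apart likewise, with 369 against at least 695. Where leaving out either library ended or made a call in a result below, this is stated, in most cases with the value without it. For the main stage 5 results the value without replicate 1 of F5 is also given. The same marker sum ran from 285 to 404 in F4 and from 79.1 to 90.0 in M4, and from 369 to 818 in F5 and from 112 to 116 in M5. Pollen markers (21 rows) summed to 357 to 512 FPKM in F5 and 533 to 743 in M5, tapetum markers (12 rows) to 41.4 to 76.8 and 33.1 to 43.7, and ovule and carpel markers (8 rows) to 49.5 to 52.1 and 40.03 to 45.7. The ovule and carpel sum was 44.8 to 48.3 in F4 and 27.1 to 29.5 in M4. Its stage 5 sum joins opposite changes: of 6 rows tested, 3 were called higher and 3 lower in female flowers (17.6% and 11.6% of all genes, calls as defined below). Of 15 pollen rows tested, 11 were called lower in female flowers at stage 5 and 0 higher, with a median log2 fold change of -2.80. At stage 4 they were also 11 and 0 (7.4% and 9.55% of all genes), with a median of -2.92. Between 0 and 6 rows of a list were at 0 in every library of a group. The part of these tissues in the results below was not tested.

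Levels are given as FPKM, the value deposited by the authors in which fragments are divided by the length of the transcript and the size of the library. Fold changes come from the deposited counts, fitted in edgeR with TMM scaling over all 30 libraries, and a gene was called at a false discovery rate (FDR) under 0.01 and a change of at least 2-fold. Positive log2 fold changes stand for more RNA in the female flower or at the later stage, and the error given is an approximate standard error (SE). The scaling differed between groups, with TMM factors of 1.05 to 1.16 in F5 and 0.774 to 0.812 in M5. A fitted fold change can therefore lie above or below the ratio of the FPKM means. At stage 5 the scaling moved differences between the sexes toward the male side. All 12 entries passed the filter on low counts.

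Calls between the sexes were made among the YABBY genes at stages 4 and 5. None of the 12 entries was called between female and male flowers at stage 1, 2 or 3 in edgeR, where 1.32%, 0.535% and 0.761% of all tested genes were called. At an unadjusted p under 0.05 the counts were 0, 0 and 7 entries, but the share of all genes under that limit was not computed. DESeq2 called 0, 0 and 1 entries, beside 803, 435 and 601 of 33399 genes. At stage 4, 6 of 12 were called (16.9% of all genes), 4 higher in female flowers (9.55%) and 2 lower (7.4%). At stage 5, 7 of 12 were called (29.2%), 4 higher (17.6%) and 3 lower (11.6%). Counted by locus, 6 of 7 were called at stage 4 and 6 of 7 at stage 5, beside 19.8% and 32.8% of all loci. By locus, 4 were called higher and 2 lower in female flowers at each of these stages. The median log2 fold change over the 12 entries was -0.22 at stage 4 and -0.31 at stage 5, and over all tested genes -0.02 and 0.03. The median over entries counts YABBY 5 as 4 entries and YABBY 2 and YABBY 4 as 2 each, so its sign does not describe the loci. The 3 YABBY 1 loci and YABBY 4 were on the female side, CRABS CLAW and YABBY 5 on the male side, and YABBY 2 was not called.

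**Figure D1:**
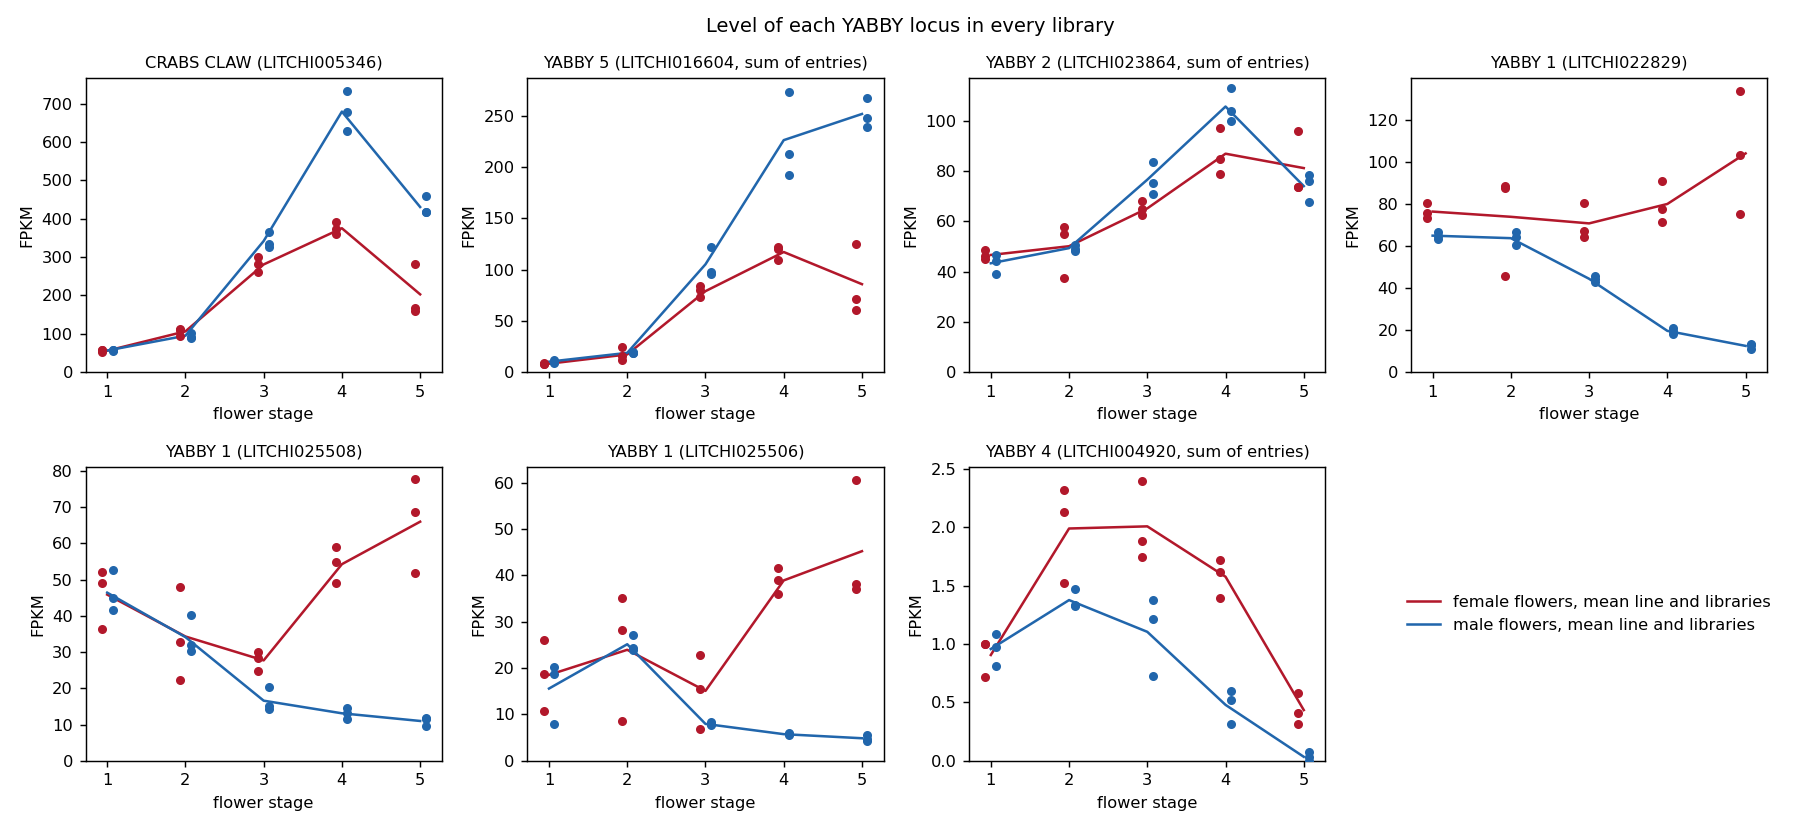
FPKM of each YABBY locus (vertical axes, from 0) against flower stage (horizontal axes), with each point a library, lines through the means of 3 replicates, red for female and blue for male flowers. CRABS CLAW reached 732 FPKM in an M4 library, whereas LITCHI022829 fell to between 10.9 and 13.6 FPKM in M5.

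YABBY 1, the FILAMENTOUS FLOWER type, fell in male flowers at all 3 loci and was higher in female than in male flowers at stages 4 and 5. The table holds no sequences, so whether the 3 loci share reads was not tested. LITCHI022829 was the most abundant of them. Its FPKM in female flowers was 75.5, 73.3 and 80.4 in F1, 87.4, 88.5 and 45.8 in F2, and 67.2, 80.7 and 64.5 in F3. It was 91.1, 77.4 and 71.5 in F4 and 75.4, 103 and 134 in F5. The female groups thus overlapped over all stages, with the single low value in the F2 library that stood apart.

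In male flowers LITCHI022829 was at 63.5, 66.5 and 64.8 FPKM in M1, 60.5, 66.6 and 64.2 in M2, and 42.9, 44.5 and 45.8 in M3. It then lay at 21.1, 19.7 and 18.1 in M4 and 13.6, 13.0 and 10.9 in M5. From M3 on, each male group lay wholly below the one before it. M4 against M3 was a fall (log2 fold change -1.07 ± 0.17 SE, FDR = 2.21e-05), as was M5 against M1 (-2.05 ± 0.18, FDR = 7.95e-10). The M4 fall no longer reached 2-fold without replicate 3 of M3 (-0.996) or replicate 3 of M4 (-0.96). M3 against M2 was -0.52 ± 0.17 and did not pass (FDR = 0.0367).

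Between the sexes, LITCHI022829 was 1.81 ± 0.18 higher on the log2 scale in F4 than in M4 (FDR = 3.21e-08) and 2.58 ± 0.18 higher in F5 than in M5 (FDR = 4.59e-11). Its FPKM means were 80.02 ± 10.05 and 19.6 ± 1.51 (SD, n = 3) at stage 4, and 104 ± 29.1 and 12.5 ± 1.42 at stage 5. At stage 3 every female library already lay above every male one, but the difference of 0.61 ± 0.17 did not pass (FDR = 0.0385).

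LITCHI025508 followed a dip and a recovery in female flowers. Its FPKM was 52.0, 36.4 and 49.2 in F1, 48.0, 32.7 and 22.2 in F2, and 30.04, 28.4 and 24.7 in F3. It was 58.9, 54.8 and 49.1 in F4 and 51.7, 77.6 and 68.6 in F5, every value above those of F3. F4 against F3 was 0.92 ± 0.21 (FDR = 0.00157), short of the 2-fold threshold. In male flowers there was no recovery: the locus was at 41.6, 45.0 and 52.6 FPKM in M1 and 30.2, 40.3 and 31.9 in M2. It was at 14.3, 20.3 and 15.2 in M3, 11.5, 14.6 and 13.2 in M4 and 11.7, 11.5 and 9.70 in M5. The fall came at M3 against M2 (-1.04 ± 0.21, FDR = 0.00113), a call that went below 2-fold without replicate 2 of M2 (-0.88), replicate 1 of M3 (-0.93) or replicate 3 of M3 (-0.99). F4 exceeded M4 by 1.83 ± 0.22 (FDR = 4.77e-07), and F5 exceeded M5 by 2.11 ± 0.22 (FDR = 2.06e-08).

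LITCHI025506 was the least abundant and most variable YABBY 1 locus. Its FPKM ran from 6.91 to 35.1 over the 9 libraries of F1 to F3 and from 7.84 to 27.2 over M1 and M2, with replicates of F2 at 35.1, 28.2 and 8.54. In opening flowers the sexes no longer overlapped: it was at 36.0, 41.7 and 39.1 in F4 and 37.1, 38.1 and 60.5 in F5. The male values were 5.82, 5.92 and 5.49 in M4 and 5.51, 4.32 and 4.76 in M5. The log2 fold change was 2.54 ± 0.43 at stage 4 (FDR = 4.17e-05) and 2.73 ± 0.43 at stage 5 (FDR = 9.33e-06). In females F4 against F3 was 1.32 and not called (FDR = 0.0149). That step became a called rise without replicate 3 of F2, replicate 2 of F3 or replicate 3 of M1. It was also called in DESeq2 and with counts summed by locus (1.33, FDR = 0.00966). Its fall in males, M3 against M2, was -1.65 ± 0.42 (FDR = 0.00614), and M5 against M1 was -1.35 ± 0.42 (FDR = 0.00685). The first call was lost without any one of the 6 libraries compared, with values from -1.70 to -1.60, and the second without any of 18 of the 30 libraries in turn.

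In female flowers none of the 3 YABBY 1 loci was called between F1 and F5, at 0.35 ± 0.17, 0.44 ± 0.21 and 1.20 ± 0.41 on the log2 scale for LITCHI022829, LITCHI025508 and LITCHI025506. The last, with an FDR of 0.0229, became a called rise without replicate 3 of F2 (1.21, FDR = 0.00597) and in DESeq2 (1.22, FDR = 0.00668). Without replicate 1 of F5 the values were 0.53, 0.58 and 1.31, none of them called. Within the libraries, LITCHI025508 was between 0.33 and 0.89 times and LITCHI025506 between 0.11 and 0.55 times the FPKM of LITCHI022829. The first ratio was lowest at stage 3, with means of 0.39 in F3 and 0.37 in M3, and highest in M5, at 0.88.

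CRABS CLAW (LITCHI005346) had the highest mean FPKM of the 12 entries from stage 2 on in both sexes. It rose in both sexes and rose further in male flowers. Its FPKM in female flowers was 56.5, 52.4 and 58.0 in F1, 95.4, 112 and 111 in F2 and 299, 261 and 281 in F3. It was 361, 391 and 373 in F4 and 282, 168 and 159 in F5. The level rose without overlap to F4, and the 3 values of F5 lay below those of F4.

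In male flowers CRABS CLAW was at 54.1, 58.3 and 56.3 FPKM in M1, 89.5, 102 and 92.6 in M2 and 366, 325 and 334 in M3. It was at 732, 678 and 627 in M4 and 458, 417 and 416 in M5. M4 was the highest of the 10 groups, where the gene ranked 17th of all rows by mean FPKM, against 64th in F4 and 1330th in F1. In the order of group means, M4, M5, F4, M3, F3, F5, F2, M2, M1 and F1, the neighbours F4 and M3, F3 and F5, F2 and M2, and M1 and F1 overlapped in their libraries.

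The sex difference in CRABS CLAW was absent from the calls at stages 1 to 3, with -0.35 ± 0.15 at stage 3 (FDR = 0.185) although the 3 male libraries were the higher ones. At stage 4 it was -1.07 ± 0.15 (FDR = 3.77e-06) and at stage 5 -1.55 ± 0.15 (FDR = 7.46e-09), lower in female flowers. The FPKM means were 375 ± 15.3 and 679 ± 52.1 (SD, n = 3) at stage 4, a male excess of 1.81 times, and 203 ± 68.6 and 430.3 ± 23.9 at stage 5, a male excess of 2.12 times. Scaled by library size without TMM factors, the stage 4 difference was -0.85 and went below the 2-fold threshold. Over 7 other settings of the fit the stage 5 difference ran from -1.60 to -1.09 and stayed a call. Without replicate 1 of F5 the stage 5 difference was -1.92, and for the YABBY 1 loci LITCHI022829, LITCHI025508 and LITCHI025506 it was 2.72, 2.21 and 2.81.

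CRABS CLAW rose at stage 3 in both sexes. F3 against F2 rose by 1.35 ± 0.15 (FDR = 2.43e-06) and M3 against M2 by 1.85 ± 0.15 (FDR = 1.17e-08). The earlier step was 0.96 ± 0.15 in females and 0.72 ± 0.15 in males, both under 2-fold, and the female step became a call without replicate 1 of F2 (1.02). M4 against M3 was a further rise (1.10 ± 0.15, FDR = 1.98e-06), which went below 2-fold without TMM factors (0.99), while F4 against F3 was 0.37 ± 0.15 (FDR = 0.058). F5 against F4 was -0.88 ± 0.15, which became a call at -1.24 without replicate 1 of F5. M5 against M4 was -0.41 ± 0.15. From stage 1 to stage 5 the gene rose by 1.80 ± 0.15 in females (FDR = 4.42e-09, 1.46 without replicate 1 of F5) and 3.26 ± 0.16 in males (FDR = 5.77e-14).

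**Figure D2:**
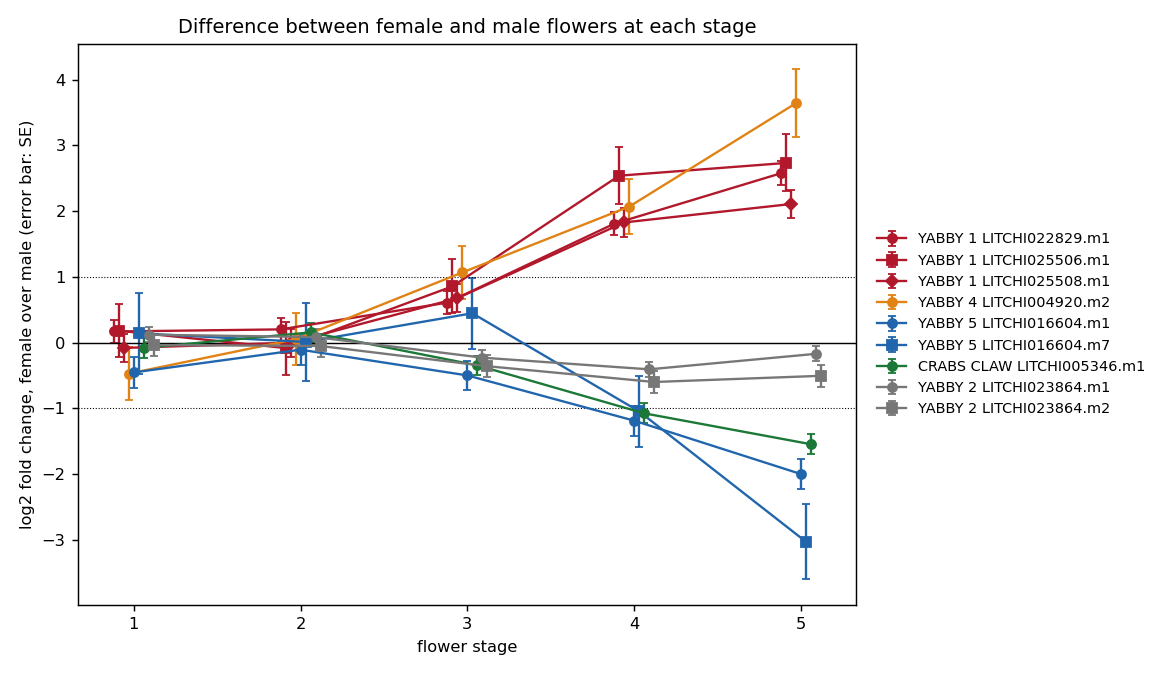
Log2 fold change of female over male flowers (vertical axis, error bars SE) at each stage (horizontal axis) for 9 of the 12 entries, the 3 with the fewest counts being left out, and dotted lines at 2-fold. At stage 5 the 3 YABBY 1 loci lie at 2.11 to 2.73 and CRABS CLAW lies at -1.55.

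YABBY 5 (LITCHI016604) rose in both sexes and was higher in male flowers at stages 4 and 5. The FPKM of the locus relative to that of CRABS CLAW in the same library had a mean of 0.148 in F1 and 0.180 in M1, and of 0.418 in F5 and 0.586 in M5, so the ratio was not constant. Entry m1 held 97.0% of the counts of the locus. Entry m1 was at 7.18, 7.47 and 6.52 FPKM in F1, 11.1, 15.0 and 22.2 in F2 and 80.5, 69.6 and 76.9 in F3. It was at 101, 115 and 116 in F4 and 120.4, 67.3 and 56.3 in F5. The replicate of F5 with the high value was the library that stood apart, as for CRABS CLAW.

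In male flowers entry m1 was at 9.06, 10.04 and 8.60 FPKM in M1, 17.7, 16.9 and 17.4 in M2 and 118, 93.9 and 95.8 in M3. It was at 187, 206 and 259 in M4 and 255, 233 and 224 in M5. From M4 on no male library was as low as any female one. The log2 fold change of female over male flowers was -1.19 ± 0.23 at stage 4 (FDR = 0.000158) and -1.999 ± 0.23 at stage 5 (FDR = 1.03e-07, -2.46 without replicate 1 of F5), and the stage 4 value was -0.96 and under 2-fold without TMM factors. The rise from stage 1 to 5 was 3.46 ± 0.25 in females (FDR = 3.24e-10, 3.04 without replicate 1 of F5) and 5.01 ± 0.27 in males (FDR = 1.71e-13). The F2 step of 1.22 ± 0.23 (FDR = 0.00101) rested on replicate 3 of F2, without which it was 0.90 and not a call.

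The other 3 entries of YABBY 5 were scarce. Entry m7, with 2.18% of the locus, rose to 11.0, 13.3 and 9.61 FPKM in M5 and was at 2.59, 1.34 and 1.77 in F5, a difference of -3.03 ± 0.57 (FDR = 8.14e-05, -3.38 without replicate 1 of F5). Its rise from stage 1 was 5.61 ± 0.66 in males (FDR = 9.88e-08) and 2.44 ± 0.59 in females (FDR = 0.00207), and the female call was lost without replicate 2 of F1 (2.29) or replicate 1 of F5 (2.12). Entries m5 and m3 held 0.592% and 0.246% of the counts, stayed under 4 FPKM and were called in none of the 16 comparisons. At an unadjusted p under 0.05 each of them passed in 1 comparison, M5 against M1, where the log2 fold changes were 2.34 ± 0.87 and 3.34 ± 1.19, and DESeq2 called both there. How reads were split between entries of a locus is not known, so the locus sum is the safer value: -2.04 ± 0.23 at stage 5 (FDR = 3.02e-08).

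YABBY 2 (LITCHI023864) was not called between the sexes at any stage. Its 2 entries shared the counts of the locus almost evenly (49.4% and 50.6%). Their summed FPKM was 48.8, 46.2 and 45.0 in F1, 57.8, 55.1 and 37.5 in F2 and 64.8, 62.5 and 68.3 in F3. It was 78.9, 97.2 and 84.8 in F4 and 73.7, 96.1 and 73.9 in F5. The lowest F2 value was again that of replicate 3. In males the sum was 39.1, 44.3 and 46.6 in M1, 50.6, 48.3 and 49.1 in M2 and 83.7, 75.2 and 70.9 in M3. It was 99.97, 113 and 104 in M4 and 76.0, 78.5 and 67.7 in M5. The male libraries were the higher ones at stages 3 and 4, and the sexes overlapped at stages 1, 2 and 5. Entry m1 differed between the sexes by -0.41 ± 0.12 at stage 4 (FDR = 0.00613) and entry m2 by -0.60 ± 0.17 (FDR = 0.00477), both under 2-fold. At stage 5 the values were -0.17 ± 0.12 and -0.50 ± 0.17, and entry m1 turned to 0.31 (FDR = 0.0267) when libraries were scaled by size alone. By FPKM, entry m1 was higher in every F5 library (39.6 to 46.0) than in any M5 library (31.7 to 37.4). M5 against M1 was 1.10 ± 0.12 and 1.10 ± 0.17 for the 2 entries (FDR = 2.13e-08 and 4.29e-06), calls that were lost at 0.76 each without TMM factors.

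YABBY 4 (LITCHI004920), the INNER NO OUTER type, was scarce in every library and was higher in female flowers at stages 4 and 5. The FPKM of its 2 entries together was 0.996, 0.718 and 1.00 in F1, 2.13, 2.31 and 1.52 in F2 and 1.88, 2.39 and 1.74 in F3. It was 1.72, 1.39 and 1.62 in F4 and 0.314, 0.405 and 0.583 in F5. The female level was highest at stages 2 to 4 and lowest in open flowers.

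The male values of YABBY 4 were 0.977, 0.811 and 1.08 in M1, 1.33, 1.32 and 1.47 in M2 and 1.22, 0.722 and 1.37 in M3. They were 0.598, 0.522 and 0.316 in M4 and 0.0307, 0 and 0.0717 in M5. From stage 2 on the summed FPKM of the female libraries lay above that of the male ones without overlap. By entry the sexes overlapped at stage 2 for m2 and at stages 3 and 5 for m1. The summed counts also overlapped at stage 2, at 113 to 157 in F2 and 101 to 121 in M2. For the locus sum, stages 2 and 3 were not called, at 0.34 ± 0.30 (FDR = 0.559) and 0.93 ± 0.30 (FDR = 0.0572). For the locus sum the log2 fold change was 1.70 ± 0.32 at stage 4 (FDR = 8.57e-05) and 3.24 ± 0.44 at stage 5 (FDR = 7.35e-07). The stage 5 groups held 158 counts in F5 and 9 in M5, a ratio per library size of 13.9 with an exact 95% interval of 7.12 to 30.9, which covers counting error only.

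Of the entries of YABBY 4, m2 held 70.03% of the counts and was called at stage 4 (2.07 ± 0.42, FDR = 0.000314) and stage 5 (3.64 ± 0.51, FDR = 1.88e-06). Without replicate 1 of F5 the latter was 3.87. Entry m1 was not called at 1.07 ± 0.65 and 1.65 ± 0.90, but the stage 5 value became a call at 5.25 (FDR = 0.00472) without replicate 3 of M5, the library that held all 3 of its counts in M5, so that this value is set against libraries at 0 and is no measure of size. At stage 3 entry m2 was at 1.07 ± 0.40 (FDR = 0.125), which DESeq2 called at 1.08. In males entry m2 fell in M4 against M3 (-1.44 ± 0.42, FDR = 0.00639), a call lost without any of 9 of the 30 libraries in turn, and in M5 against M4 (-2.86 ± 0.52, FDR = 0.00014). Entry m1 fell in M5 against M4 (-3.39 ± 0.86, FDR = 0.0035), where its 3 counts in M5 stood against 40 in M4 (ratio 13.1, exact 95% interval 4.17 to 66.2). That call was lost without replicate 1 of M4 or without replicate 1 or 2 of M5. From M1 to M5 the entries changed by -3.81 ± 0.85 and -4.43 ± 0.52. In females F5 against F4 was -2.81 ± 0.70 (FDR = 0.0164) for m1 and -1.28 ± 0.40 (FDR = 0.0661) for m2, while the locus sum was called (-1.56, FDR = 0.002).

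The makeup of the family therefore differed between the sexes in open flowers. All 12 entries together summed to 252 ± 8.15 FPKM (SD, n = 3) at female and 238 ± 8.11 at male stage 1, to 754 ± 26.2 in F4 and 1050.2 ± 11.4 in M4, and to 585 ± 51.4 in F5 and 785 ± 43.3 in M5. YABBY 1 made up 55.8% of the sum in F1 and 37.4% ± 11.0 in F5. In males its share was 53.4% in M1 and 3.60% ± 0.193 in M5. CRABS CLAW had its highest share, 64.6% ± 4.31, in M4, and YABBY 5 had 32.1% ± 0.105 in M5 against 14.4% ± 4.40 in F5. Shares of a sum are not independent, since a rise in one lowers the others.

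**Figure D3:**
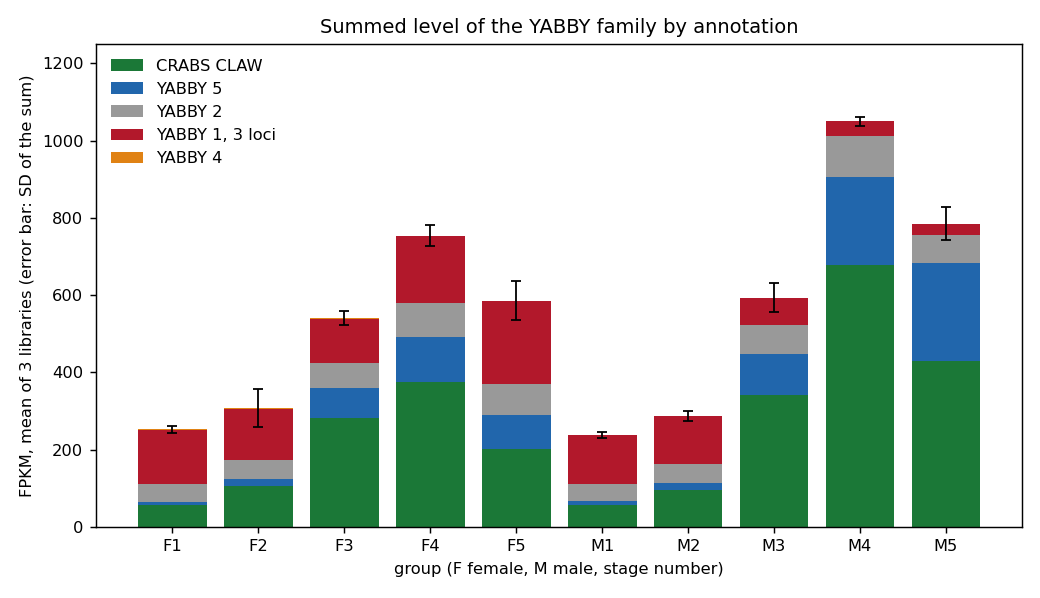
Mean FPKM of the YABBY family (vertical axis, from 0) in each of the 10 groups (horizontal axis), stacked by annotation, with the SD of the sum over 3 libraries as error bars. The YABBY 1 part is 215 FPKM in F5 and 28.3 FPKM in M5, and YABBY 4 is too low to be seen.

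The ratio of CRABS CLAW to the summed YABBY 1 loci, both taken from the same library, does not depend on how libraries are scaled. It was between 0.386 and 0.409 in F1 and between 0.432 and 0.450 in M1. In females it was 2.65, 1.98 and 2.93 in F3, 1.94, 2.25 and 2.34 in F4, and 1.72, 0.765 and 0.604 in F5. In males it was 5.63, 4.44 and 4.86 in M3, 19.1, 16.9 and 17.1 in M4, and 14.9, 14.5 and 16.4 in M5. The male ratio thus exceeded every female one from stage 3 on, with M4 and M5 far above all other groups. Within F5, the library with the highest ratio was replicate 1, which also had the fewest green tissue markers, and in F2 it was replicate 3 (1.45 against 0.559 and 0.752), again the library with the fewest.

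**Figure D4:**
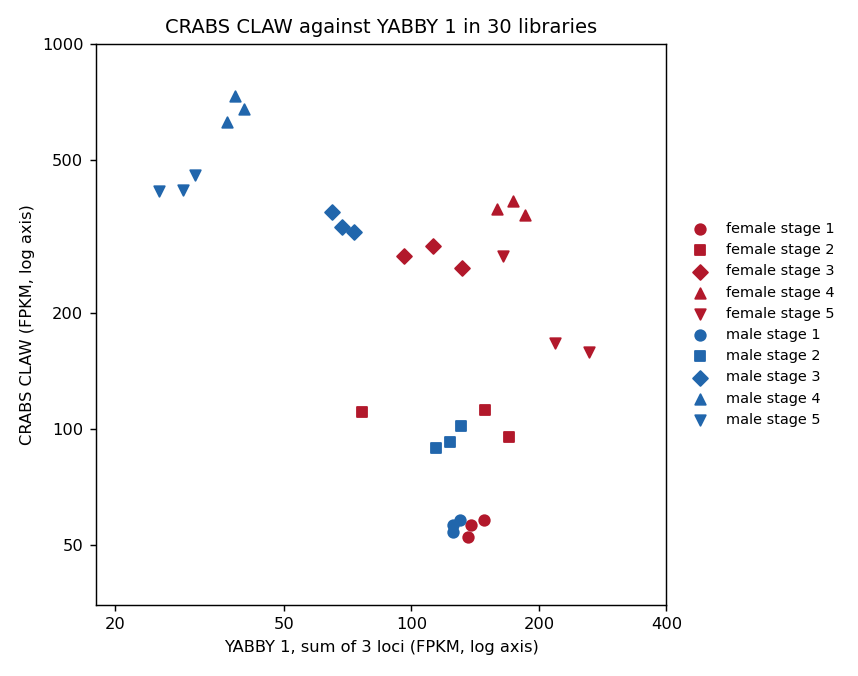
FPKM of CRABS CLAW (vertical log axis) against the sum of the 3 YABBY 1 loci (horizontal log axis) in 30 libraries, red for female and blue for male, marker shape by stage. M4 and M5 lie at the upper left with ratios of 14.5 to 19.1, and F4 lies to the right at 1.94 to 2.34.

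The stages were also compared within each sex over all 12 entries. In females 1 entry was called in F2 against F1 (3% of all genes), 3 in F3 against F2 (2.51%), none in F4 against F3 (12.1%) or F5 against F4 (1.22%), and 3 in F5 against F1 (14.8%). All of these were rises, beside 2.33%, 1.53% and 7.44% of all genes that rose in those comparisons. Both counts of 0 stood beside 5 entries at an unadjusted p under 0.05 in edgeR, with no share of all genes computed for that limit. DESeq2 called 1 and 2 entries there, beside 4029 and 734 of 33399 genes. In males none was called in M2 against M1 (2.66%), where 3 entries had an unadjusted p under 0.05 and DESeq2 called 0 (1098 of 33399 genes). Of the 4 entries called in M3 against M2 (6.23%), 2 rose (3.76%) and 2 fell (2.47%). Of 5 in M4 against M3 (20.4%), 3 rose (7.73%) and 2 fell (12.6%). Both entries called in M5 against M4 (10.6%) fell (7%). Of 10 in M5 against M1 (36.8%), 5 rose (15.3%) and 5 fell (21.5%). Those comparisons share libraries and are not independent of each other.

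An interaction term tested whether female and male flowers differed in their change from stage 1 to stage 5. Calls were made for 7 of 12 entries (22.6% of all genes), 4 positive (14.7%) and 3 negative (7.84%). The difference was 2.41 ± 0.25 for LITCHI022829, 2.19 ± 0.30 for LITCHI025508 and 2.55 ± 0.58 for LITCHI025506. It was 4.11 ± 0.65 for YABBY 4 entry m2, where M5 held 6 counts. It was -1.47 ± 0.21 for CRABS CLAW, -1.55 ± 0.32 for YABBY 5 entry m1 and -3.17 ± 0.83 for m7. YABBY 2 was not called, at -0.29 ± 0.16 and -0.47 ± 0.23 for its entries. Without replicate 1 of F5 the same number, 7, was called, with -1.85 for CRABS CLAW and 2.54 for LITCHI022829.

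Across the 10 group means of log2(FPKM + 1), with the libraries of a group shared by all loci, CRABS CLAW correlated with YABBY 5 at 0.98 and with YABBY 2 at 0.94. The 3 YABBY 1 loci correlated with each other at 0.89 to 0.94, and with CRABS CLAW at -0.61 to -0.44. These values describe 10 groups and carry no test.

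Other genes of organ polarity were counted from a list of 28 rows, 25 of them tested. In female against male flowers 9 were higher and none lower at stage 4 (9.55% and 7.4% of all genes), and 10 were higher and none lower at stage 5 (17.6% and 11.6%), with a median log2 fold change of 1.11 at stage 5 (0.03 over all genes). From M1 to M5 none rose and 9 fell (15.3% and 21.5% of all genes). From F1 to F5 none rose and 1 fell, beside 14.8% of all genes called in either direction and 7.44% that rose. The 3 largest at stage 5 were JAGGED (LITCHI005549.m1), a zinc finger protein of organ growth, ATHB-8 (LITCHI017197.m1) and REVOLUTA (LITCHI024703.m1), both class III HD-ZIP factors, a class known for adaxial and vascular roles. JAGGED was at 7.42 ± 0.821 FPKM in F5 and 0.142 ± 0.0770 in M5 (log2 fold change 5.22 ± 0.27). ATHB-8 was at 12.4 ± 4.45 and 0.477 ± 0.0125 (4.21 ± 0.22), and REVOLUTA at 10.6 ± 0.923 and 0.507 ± 0.116 (3.92 ± 0.17). Of the 8 class III HD-ZIP rows, 5 were higher in F5 than in M5, beside 17.6% of all genes. Of the 5 KANADI rows, abaxial factors like the YABBY proteins, 1 was higher, a share near that of all genes, and the difference between these classes was not tested. Some rows of both classes are entries of the same locus (LITCHI030492, LITCHI028674, LITCHI020480 and LITCHI011114) and were counted separately.

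A list of 31 carpel and ovule rows, 25 of them tested, moved in both directions at stage 5 (7 higher and 5 lower in female flowers, beside 17.6% and 11.6% of all genes, median -0.49), with 5 higher and 2 lower at stage 4 (9.55% and 7.4%). Its summed FPKM was 287 to 303 in F5 and 409 to 412 in M5. The 3 called rows with the largest change at stage 5 were all higher in female flowers. Other rows annotated AINTEGUMENTA or SUPERMAN are not described. WUSCHEL (LITCHI006478.m1), a stem cell and ovule factor, was at 5.05 ± 0.600 FPKM in F5 and at 0.0507 ± 0.0544 in M5 (5.97 ± 0.62). At stage 3 the male libraries were the higher ones, at 15.7 ± 2.00 FPKM in M3 and 8.59 ± 0.743 in F3. AINTEGUMENTA (LITCHI007109.m1), an AP2-like factor of ovule and organ growth, was at 12.8 ± 1.85 and 0.270 ± 0.132 (5.09 ± 0.33). SUPERMAN (LITCHI015373.m1), a zinc finger factor of the stamen and carpel boundary, differed by 5.29 ± 1.07 with 2 counts in M5.

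The nectary list held 8 rows, of which 5 were tested, and 1 was higher and 3 were lower in F5 than in M5, beside 17.6% and 11.6% of all genes. NEC1 (LITCHI003451.m1), a sugar transporter named for the nectary of petunia, was at 0 to 0.111 FPKM in F1 and M1, at 485 ± 150 in F5 and at 1567 ± 102 in M5 (-2.15 ± 0.54, FDR = 0.00164). Another NEC1 locus, LITCHI003452.m1, which may share reads with the first, was at 7.43 ± 3.52 in F5 and 59.5 ± 7.54 in M5 (-3.45 ± 0.70). The auxin efflux carrier component 6 (LITCHI011376.m2) was at 4.95 ± 2.10 in F5 and 0.157 ± 0.0276 in M5 (4.45 ± 0.36).

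The genes whose profile was most like that of 3 members were found by Pearson correlation over the 10 group means of log2 CPM, among 27842 genes. For CRABS CLAW they were a SMAX1-LIKE 6 protein (LITCHI007212.m1, r = 0.991), LIGHT-DEPENDENT SHORT HYPOCOTYLS 3 (LITCHI026022.m1, r = 0.988) and a heavy metal-associated isoprenylated protein (LITCHI012078.m1, r = 0.988), and 107 genes exceeded 0.95. For YABBY 5 entry m1 they were a CDC48 homolog (LITCHI010662.m1, r = 0.993), an unnamed gene (LITCHI028807.m1, r = 0.991) and a probable cinnamyl alcohol dehydrogenase (LITCHI007654.m1, r = 0.990), and 113 genes exceeded 0.95. For YABBY 4 entry m2 they were a SUVH4 histone methyltransferase (LITCHI021733.m6, r = 0.980), an organellar asparagine-tRNA ligase (LITCHI028750.m1, r = 0.979) and pectinesterase inhibitor 3 (LITCHI017488.m1, r = 0.976), and 63 genes exceeded 0.95.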

How the data were processed

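The authors deposited raw counts and FPKM values per gene and library, 30 libraries of whole flowers in 10 groups of 3. According to the study, reads were trimmed with Trimmomatic, ribosomal reads were removed and expression was computed with Cufflinks. The submitters' processing notes also name HISAT2 2.0.4 and StringTie. No genome build or counting tool was found (not given in the sources used here), and gene positions are left out. The deposited table further holds the authors' own fold changes and adjusted p-values, which were not used.

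From the counts, 1 model was made with R 4.3.3 and edgeR 4.0.16 (quasi-likelihood test, TMM, filterByExpr, 10 group means over all 30 libraries). This kept 27854 genes and removed 9380, with a common biological coefficient of variation of 0.352. Calls used a Benjamini-Hochberg FDR under 0.01 over all tested genes and a 2-fold change, in 16 comparisons. Dividing a log2 fold change by the root of its F gave the SE. DESeq2 1.42.0 and the other settings of the closing section were alternatives, and the fit was tested on simulated data. Low counts carry counting intervals, which take reads as independent.

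The text names every member, the 3 most similar genes of 3 members, and the 3 called genes of each list with the largest change at stage 5. YABBY 4 was taken as the INNER NO OUTER row after its annotation was seen. Members and lists were chosen with earlier results of these data known. No 2 replicates of a group agreed within sampling noise, with a chi-square per gene of 21.7 or more over the 30 pairs within groups. Same-numbered libraries of the sexes had correlations of -0.0437 to 0.0311 in their deviations from the group means. What a shared collection would give is not known, so this cannot decide whether the numbers pair the samples.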

Additional observations from a re-analysis of the deposited data

Results flagged for a closer look

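The change from stage 1 to stage 5 differed between the sexes, by the interaction test in edgeR at an FDR under 0.01, for 7 YABBY entries. The differences on the log2 scale, female minus male, were -1.47 for CRABS CLAW (LITCHI005346.m1), 2.41 for LITCHI022829.m1, 2.55 for LITCHI025506.m1 and 2.19 for LITCHI025508.m1 among the YABBY 1 loci. They were 4.11 for YABBY 4 entry m2 (LITCHI004920.m2) and -1.55 and -3.17 for YABBY 5 entries m1 and m7 (LITCHI016604.m1 and LITCHI016604.m7). From stage 1 to stage 5 these YABBY 1 and YABBY 4 entries fell in male flowers and were not called in females, except that LITCHI025506.m1 was a called rise in females without replicate 3 of F2 (1.21) and in DESeq2 (1.22), whereas CRABS CLAW and YABBY 5 rose in both sexes and rose more in males.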

How the results depend on the processing

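Of 82 results on single YABBY entries, 51 kept their call and direction under every setting tried, as did 7 of the 16 counts of called entries under the 1.5-times limit. Scaling by library size without TMM factors moved the median of all tested genes by 0.22 at stage 4, 0.47 at stage 5, -0.11 in M4 against M3, -0.24 in M5 against M4, -0.34 in M5 against M1 and 0.41 in the interaction. It turned YABBY 2 entry LITCHI023864.m1 from -0.17 to 0.31 at stage 5 and from -0.29 to 0.12 in the interaction. The cause of the following changes was not tested. DESeq2 called 1 entry between the sexes at stage 3, 1 in F4 against F3, 2 in F5 against F4 and 5 in F5 against F1. Of 33399 genes it called 601, 4029, 734 and 4762 in these comparisons. With only the groups compared in the fit, 0 were called in F2 against F1, 1 in F3 against F2, 3 in M4 against M3 and 0 in M5 against M4, where fewer libraries estimate the spread. Over all genes, 200 of 24774, 54 of 24998, 5190 of 25150 and 2047 of 24159 were called in those fits. With counts summed by locus, 1 was called in each of F4 against F3, F5 against F4 and M5 against M4, beside 14.4%, 1.74% and 12.3% of all loci. Leaving out each replicate in turn gave 0 to 2 calls in F2 against F1, 0 to 1 in F4 against F3, 0 to 1 in F5 against F4, 2 to 5 in M3 against M2, 2 to 5 in M4 against M3 and 1 to 2 in M5 against M4. The libraries that moved these counts by over 1.5 times were replicates 1 and 3 of F2, replicate 2 of F3, replicate 1 of F5, replicate 3 of M1, replicate 2 of M2, replicates 1 and 3 of M3, replicates 1 and 3 of M4 and all of M5. With the replicate number as a block, 3 single results changed their call: LITCHI016604.m7 in F3 against F2 (FDR = 0.0105), LITCHI004920.m2 in M4 against M3 (FDR = 0.0104) and LITCHI004920.m1 in F5 against F1 (FDR = 0.00926). The block moved no count by over 1.5 times, and the numbers are not known to pair the samples. Depth limits YABBY 4, at 0 to 152 counts per entry and library.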
